A study of Homo sapiens with 44 samples.

Results

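A group of 10 genes was followed here in the RNA tables of a study of HCT116, a human colorectal carcinoma cell line. The genes were chosen by their symbols and their function in epithelial cells, with earlier results of these data known. The group held the grainyhead-like transcription factors GRHL1, GRHL2 and GRHL3, the zinc finger repressors OVOL1 and OVOL2, and the splicing regulators ESRP1 and ESRP2. It also held the ETS factors ELF3 and EHF and the Kruppel-like factor KLF5. These genes are 10 of the 21272 gene names listed across both tables, and all were found in each table. The study concerned crotonylation of lysine 27 on histone H3 and its reader GAS41, encoded by YEATS4. Of its 44 samples, 18 were RNA libraries in 6 groups of 3, and the 26 chromatin samples were not used here.

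One table held 12 libraries: WT cells, GAS41-KO cells, GAS41-KO cells that stably expressed GFP-Flag-tagged wild-type GAS41 (wt rescue), and GAS41-KO cells that stably expressed the tagged double mutant Y74A/W93A (mut rescue). The other held 6 libraries of WT cells given the vehicle DMSO or doxorubicin, a topoisomerase poison that damages DNA, at 500 nM for a time not given in the sources used here. All cells were the p53+/+ line, and RNA of the GAS41 experiment was selected by its poly-A tail. The labels call the replicates biological but do not say whether they were separate cultures, nor how many clones each engineered line came from, so the p-values measure the spread between these libraries, and a difference between lines and a difference between clones cannot be told apart. The experiments were sequenced on different platforms and normalized apart, so no level was set against a level of the other table.

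GRHL factors bind DNA as dimers and activate genes of cell junctions and epithelial proteases, and GRHL2 is known to oppose ZEB1, a repressor of epithelial genes that drives the epithelial-mesenchymal transition. OVOL proteins repress ZEB1 and related factors. ESRP proteins bind pre-mRNA and direct the epithelial pattern of alternative splicing, while ELF3, EHF and KLF5 are transcription factors typical of simple and glandular epithelia, the intestine included.

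Promoters drawn from RefSeq (GRCh38.p14) were examined for 5 of the 10 genes, with 8 start sites: GRHL1, GRHL3, ELF3, EHF and KLF5. OVOL1, OVOL2 and ESRP2 had no entry in the promoter set used, and GRHL2 and ESRP1 were left out of the search. The 250 bases before each start were searched on both strands for CACCTG, the E-box that ZEB and SNAI repressors bind, for the grainyhead site AACCNGTT and for the OVO site CCGTTA. No motif overlapped another in the windows that held one. The E-box was found once in the ELF3 window, 120 bases before the start, and once in 1 of the 2 GRHL3 windows, 21 bases before the start. Of 35116 promoter windows of the same length, 17.5% held the E-box, 1.49% the grainyhead site and 2.45% the OVO site, and neither of the last pair was found in any of the 8 windows. ELF3 is shown because it changed most between the GAS41 groups among the 5 genes searched. GRHL2 and ESRP1, which changed more, were not searched. GRHL3 is shown because it changed most with doxorubicin, with its E-box-bearing start first. All 3 lie on the plus strand of chromosome 1, upstream of the transcript, and capitals mark the E-box.
ELF3, chr1:202010337-202010586: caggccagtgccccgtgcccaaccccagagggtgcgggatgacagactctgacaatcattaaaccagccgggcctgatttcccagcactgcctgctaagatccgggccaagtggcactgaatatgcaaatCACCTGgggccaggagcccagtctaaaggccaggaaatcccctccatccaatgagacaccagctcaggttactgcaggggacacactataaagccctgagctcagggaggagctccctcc
GRHL3, chr1:24319107-24319356: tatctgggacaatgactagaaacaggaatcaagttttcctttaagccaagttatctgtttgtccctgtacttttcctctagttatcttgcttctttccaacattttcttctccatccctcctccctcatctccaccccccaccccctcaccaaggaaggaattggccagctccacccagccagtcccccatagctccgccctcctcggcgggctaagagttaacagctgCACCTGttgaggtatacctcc
GRHL3, chr1:24322790-24323039: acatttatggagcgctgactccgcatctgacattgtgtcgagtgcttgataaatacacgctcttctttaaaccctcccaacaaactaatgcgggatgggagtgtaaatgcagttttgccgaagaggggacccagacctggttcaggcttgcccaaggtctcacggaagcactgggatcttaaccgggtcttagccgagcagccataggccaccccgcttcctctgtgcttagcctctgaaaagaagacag
A match is a run of letters and was not tested as a binding site.

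Values are given as normalized reads, that is, reads divided by the size factor of the library, recovered from the deposited log2 values. Changes are differences of the deposited log2 values with their standard error (SE), and these understate the fold change of low genes, because the deposited scale flattens toward its floor: a value 1 log2 unit above the floor stands for 39.1 normalized reads in the GAS41 experiment, and for 52.6 in that with doxorubicin. Libraries held 16857982 to 18546135 reads in the GAS41 experiment and 17442035 to 18894312 in the experiment with doxorubicin. A gene was called changed at a limma adjusted p under 0.05 over all tested genes.

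The targeted gene, YEATS4, stood at 625, 608 and 621 normalized reads in WT, at 386, 337 and 325 in GAS41-KO, at 2890, 3500 and 3370 in wt rescue and at 2550, 2360 and 2540 in mut rescue. Its RNA was thus 56.5% of WT in GAS41-KO, 526% in wt rescue and 401% in mut rescue. Both rescues exceeded the WT level, and the mut rescue level was below the wt rescue level by 0.37 log2 units (adjusted p = 0.000443, or 0.0513 with only replicate 1 in the wt rescue group). The first wt rescue library stood apart: its mean absolute difference from the other replicates was 0.17 log2 units, against 0.07 to 0.14 in the other 11 libraries of that table. The epithelial keratins KRT8, KRT18 and KRT19 made up most of a summed level of 7 epithelial markers that ran, in normalized reads, from 56800 to 60400 in WT, 63400 to 65300 in GAS41-KO, 76400 to 89300 in wt rescue and 65800 to 79800 in mut rescue. That sum hides markers that went opposite ways. Of the 6 tested in GAS41-KO against WT, KRT8 and KRT18 were called higher and EPCAM and CDH1 lower. Of all tested genes, 26.0% were called higher there and 26.6% lower. EPCAM had 7500 ± 348 normalized reads in WT and 915 ± 17 in GAS41-KO, and CDH1 had 1420 ± 17 and 138 ± 15.1. VIL1, a marker of the intestinal brush border, had at most 1.01 normalized reads in any library of the GAS41 table.

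In GAS41-KO cells 8 of the 9 tested genes were lower than in WT and KLF5 was higher, in a comparison in which 52.6% of all 14505 tested genes were called in either direction, 26.6% were called lower and 26.0% higher. GRHL2 fell furthest, from 705 ± 4.74 to 5.98 ± 2.66 normalized reads (SD, n = 3), ESRP1 and OVOL1 fell 7.17-fold and 6.47-fold, and ELF3 fell 3.23-fold. These 4 fell by at least 1 log2 unit, as did 0.800% of all tested genes. The median change of the 9 was -0.86 against -0.01 over all tested genes. GRHL3 did not pass the filter on low values in this table, and GRHL2 passed it through the WT and wt rescue libraries, so the count is over genes that passed and describes no more than them. The direction of GRHL2, counted among the 8 and the 4, was thus fixed by the filter. GRHL1, OVOL2, ESRP2 and EHF fell by less, to between 52.5% and 72.6% of WT. In bulk RNA, fewer cells with a transcript and less of it per cell cannot be told apart.

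**Figure D1:**
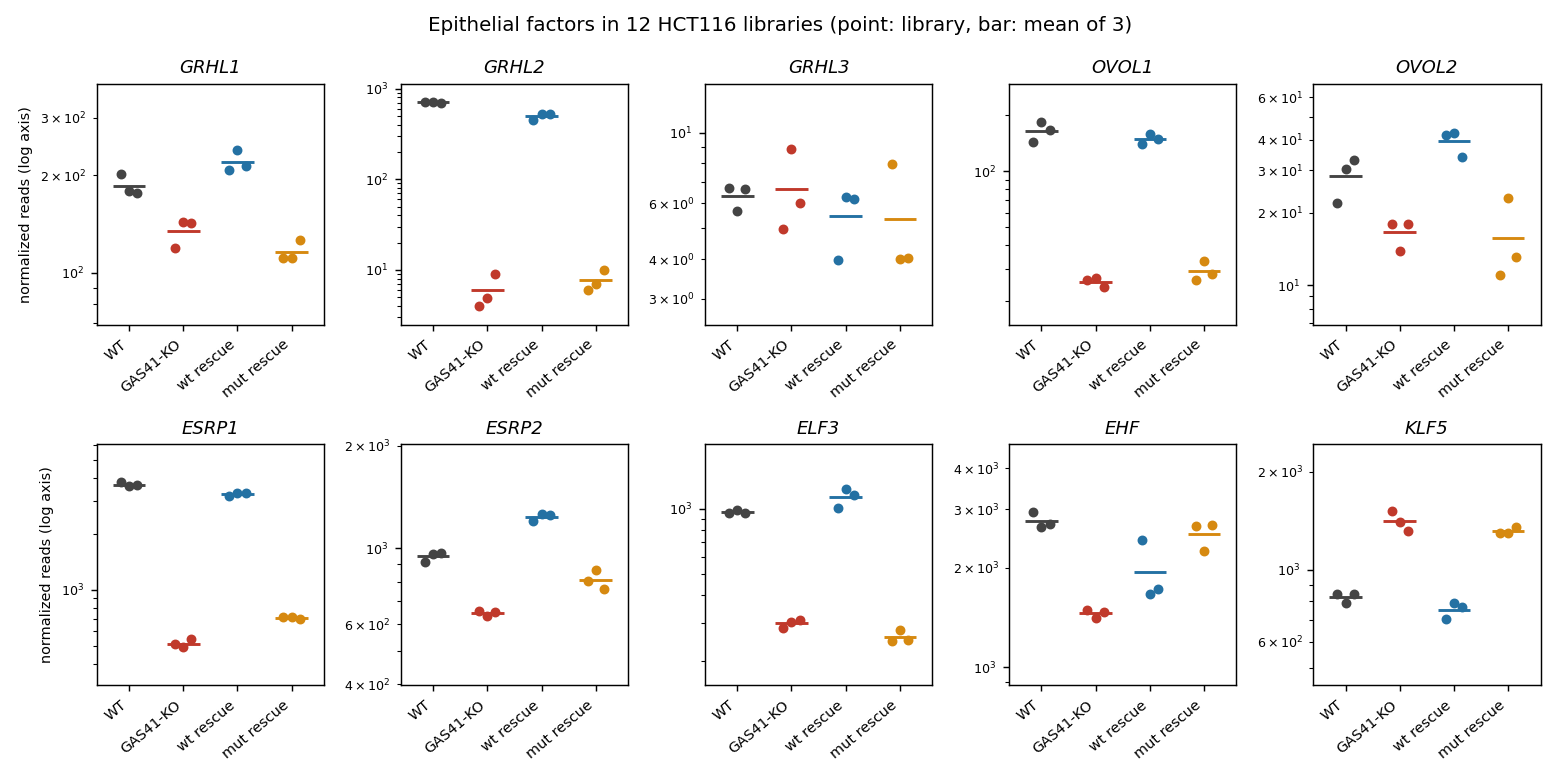
Normalized reads (log axis, a separate scale in each panel) of the 10 genes in the WT, GAS41-KO, wt rescue and mut rescue groups; points are libraries and bars the mean of 3. GRHL2, OVOL1, ESRP1 and ELF3 were low in every GAS41-KO and mut rescue library and high in every WT and wt rescue library, KLF5 had the opposite order, and GRHL3 lay under 9 normalized reads throughout.

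Among the grainyhead-like genes, GRHL2 had 710, 704 and 701 normalized reads in WT, 3.99, 4.95 and 9.01 in GAS41-KO, 453, 528 and 525 in wt rescue, and 5.98, 6.98 and 10.1 in mut rescue. The GAS41-KO and mut rescue libraries were near the limit of detection, with 4, 5 and 9 reads in GAS41-KO, and neither overlapped WT or wt rescue. The difference between GAS41-KO and WT was -3.06 log2 units, a 118-fold lower level. Wild-type GAS41 raised GRHL2 83.9-fold over GAS41-KO (2.66 log2 units), to 71.2% of WT. Both differences are given with no test, because GRHL2 passed the filter on low values through the WT and wt rescue libraries. The remaining gap between wt rescue and WT was called (-0.40, adjusted p = 0.000207), though not on the log2(normalized reads + 1) scale (-0.49, adjusted p = 0.0745). The double mutant left GRHL2 at 1.09% of WT, and the difference from GAS41-KO was 0.06 log2 units (95% interval -0.08 to 0.19, adjusted p = 0.632).

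GRHL1, a paralog that binds the same DNA motif, had 201, 179 and 176 normalized reads in WT, 119, 144 and 142 in GAS41-KO, 208, 239 and 213 in wt rescue, and 111, 111 and 126 in mut rescue. As with GRHL2, the WT and wt rescue libraries lay above all GAS41-KO and mut rescue libraries, but within those pairs wt rescue had the higher mean than WT and GAS41-KO the higher mean than mut rescue. The span was smaller, 0.54 log2 units between the highest and the lowest group mean against 3.06 for GRHL2. The difference between GAS41-KO and WT was -0.27 log2 units (SE 0.06, adjusted p = 0.00188), wt rescue was above GAS41-KO by 0.42 (SE 0.06, adjusted p = 2.29e-05), and mut rescue did not differ from GAS41-KO past the threshold (-0.12, interval -0.25 to 0.02, adjusted p = 0.245). GRHL3, which acts in the epidermal barrier and the urothelium, had 3.98 to 8.91 normalized reads over all 12 libraries and was not tested there.

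The OVOL pair shared a direction and differed in size. OVOL1 had 144, 185 and 167 normalized reads in WT, 25.9, 26.7 and 24 in GAS41-KO, 141, 158 and 150 in wt rescue, and 25.9, 32.9 and 28.2 in mut rescue. No GAS41-KO or mut rescue library reached the lowest WT or wt rescue library, and the changes were -1.13 log2 units for GAS41-KO against WT (SE 0.06, adjusted p = 2.28e-10) and 1.05 for wt rescue against GAS41-KO (SE 0.06, adjusted p = 6.02e-10). The wt rescue mean was 90.4% of WT and did not differ from it past the threshold (-0.08, interval -0.21 to 0.05, adjusted p = 0.273), while the mut rescue mean was 17.5% of WT. The antisense gene OVOL1-AS1 had means of 1.33 to 3.15 normalized reads in the 4 groups, and the sources used here do not say whether counting used strand.

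OVOL2 was low in all groups, at 22, 30.2 and 33.2 normalized reads in WT, 18, 13.9 and 18 in GAS41-KO, 41.8, 42.8 and 34.1 in wt rescue, and 11, 22.9 and 13.1 in mut rescue. The GAS41-KO libraries lay below all WT libraries, by -0.20 log2 units (SE 0.07, adjusted p = 0.0238), and this call was lost without GAS41-KO replicate 2 (adjusted p = 0.0899), WT replicate 2 (0.0716) or WT replicate 3 (0.0994). Wild-type rescue raised OVOL2 2.38-fold over GAS41-KO (0.35, SE 0.07, adjusted p = 0.000329), and mut rescue overlapped both WT and GAS41-KO. Its difference from WT was -0.22 (adjusted p = 0.0137), which was lost without mut rescue replicate 1 (0.0721) or WT replicate 3 (0.0655).

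Of the splicing regulators, ESRP1 had the largest change in GAS41-KO after GRHL2 among the 9 tested genes. It had 3780, 3620 and 3640 normalized reads in WT, 509, 490 and 542 in GAS41-KO, 3190, 3300 and 3320 in wt rescue, and 711, 713 and 693 in mut rescue. The 4 groups did not overlap: WT was highest, then wt rescue, mut rescue and GAS41-KO. The change in GAS41-KO was -2.54 log2 units (SE 0.05, adjusted p = 3.65e-15), and wild-type rescue reversed it by 2.37 (SE 0.05, adjusted p = 9.54e-15). Mut rescue exceeded GAS41-KO by 0.37 (SE 0.05, adjusted p = 0.000241) and reached 19.2% of WT. The difference between wt rescue and WT, -0.16 (adjusted p = 0.021), was lost without WT replicate 1 (0.083) or WT replicate 3 (0.0505).

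ESRP2, its paralog with an overlapping set of target exons, moved less and ranked the groups in another order. It had 915, 962 and 967 normalized reads in WT, 654, 636 and 650 in GAS41-KO, 1200, 1260 and 1250 in wt rescue, and 801, 862 and 760 in mut rescue. GAS41-KO was lowest and wt rescue was highest, 131% of WT, with no overlap between any of the 4 groups. The changes were -0.47 log2 units for GAS41-KO against WT (SE 0.06, adjusted p = 4.74e-06), 0.81 for wt rescue against GAS41-KO (SE 0.06, adjusted p = 6.79e-09), 0.34 for wt rescue against WT (adjusted p = 0.000295) and 0.27 for mut rescue against GAS41-KO (adjusted p = 0.00489). The counts are per gene, and splice isoforms of the ESRP targets cannot be read from them.

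ELF3, an epithelial ETS factor, had 951, 990 and 953 normalized reads in WT, 284, 302 and 310 in GAS41-KO, 1010, 1230 and 1150 in wt rescue, and 248, 277 and 250 in mut rescue. The high pair of groups and the low pair were separated by a wide gap, -1.34 log2 units for GAS41-KO against WT (SE 0.07, adjusted p = 9.22e-11) and 1.53 for wt rescue against GAS41-KO (SE 0.07, adjusted p = 1.76e-11). Mut rescue lay below every GAS41-KO library, but the difference was not called (-0.14, adjusted p = 0.173). Wt rescue exceeded WT by 0.20 (adjusted p = 0.0233). That call was lost without wt rescue replicate 2 (0.12), wt rescue replicate 3 (0.0771), WT replicate 1 (0.0695) or WT replicate 3 (0.0683). It was also lost after quantile normalization (0.14, adjusted p = 0.0962) and with only those groups in the fit (0.20, adjusted p = 0.0519). With replicate 1 as the sole wt rescue library the difference was 0.05.

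EHF, the second ETS factor, was the exception among the genes that fell. It had 2950, 2660 and 2720 normalized reads in WT, 1490, 1410 and 1470 in GAS41-KO, 2430, 1660 and 1730 in wt rescue, and 2680, 2240 and 2690 in mut rescue. The double mutant thus brought EHF to 91.4% of WT, a difference of -0.13 log2 units (interval -0.35 to 0.10, adjusted p = 0.365), while wild-type GAS41 brought it to 69.9%. Mut rescue exceeded GAS41-KO by 0.74 (SE 0.11, adjusted p = 0.000229) and wt rescue exceeded it by 0.36 (SE 0.11, adjusted p = 0.00768, or 0.25 and 0.0658 after quantile normalization). Without wt rescue replicate 1 that last difference was 0.20 (adjusted p = 0.018). The rescues overlapped each other, because wt rescue replicate 1 lay inside the mut rescue range. With all 3 wt rescue libraries, mut rescue was above wt rescue by 0.38 (adjusted p = 0.00673) and wt rescue below WT by -0.50 (adjusted p = 0.00155), and with replicate 1 alone in its group these were 0.05 (adjusted p = 0.682) and -0.18 (adjusted p = 0.204).

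KLF5, which supports proliferation of intestinal crypt cells, ran the other way. It had 843, 789 and 845 normalized reads in WT, 1520, 1400 and 1320 in GAS41-KO, 706, 791 and 766 in wt rescue, and 1300, 1300 and 1350 in mut rescue. All GAS41-KO and mut rescue libraries exceeded all WT and wt rescue libraries. GAS41-KO was 1.71-fold higher than WT (0.68 log2 units, SE 0.06, adjusted p = 1.87e-07), wild-type rescue lowered it (-0.79, SE 0.06, adjusted p = 2.29e-08), and mut rescue did not differ from GAS41-KO past the threshold (-0.09, interval -0.22 to 0.04, adjusted p = 0.395).

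Over the 9 tested genes, wild-type rescue raised 8 and lowered KLF5 relative to GAS41-KO, where 66.0% of all tested genes were called in either direction, 33.0% were called higher and 33.0% lower. This comparison shares the GAS41-KO libraries with the comparison of GAS41-KO with WT. The double mutant raised 3 of 9 over GAS41-KO, namely ESRP1, ESRP2 and EHF, against 14.9% of all genes called in either direction, with 5.92% called higher. The direct comparison of the rescues called 7 of 9 lower in mut rescue and EHF and KLF5 higher, against 61.1% of all genes called, 31.3% lower and 29.8% higher. GRHL2 is among the 8 raised by wild-type rescue and the 7 lower in mut rescue, and its direction in both was fixed by the filter. Median changes of the 9 were 0.81 for wt rescue against GAS41-KO, 0.05 for mut rescue against GAS41-KO and -0.54 for mut rescue against wt rescue, with medians over all tested genes of -0.01, 0.01 and 0.00. YEATS4 RNA was lower in mut rescue than in wt rescue, and the part of that gap in these differences was not tested.

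Against WT, 5 of 9 genes were called in wt rescue, with ESRP2 and ELF3 higher and GRHL2, ESRP1 and EHF lower, where 50.1% of all genes were called, 27.4% higher and 22.7% lower. That number was 3 without WT replicate 3, and 2 with replicate 1 as the sole wt rescue library. In mut rescue, 7 genes were lower and KLF5 was higher than WT, where 46.3% of all genes were called, 22.9% lower and 23.5% higher. GRHL2 is among these 7, and its direction was fixed by the filter.

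**Figure D2:**
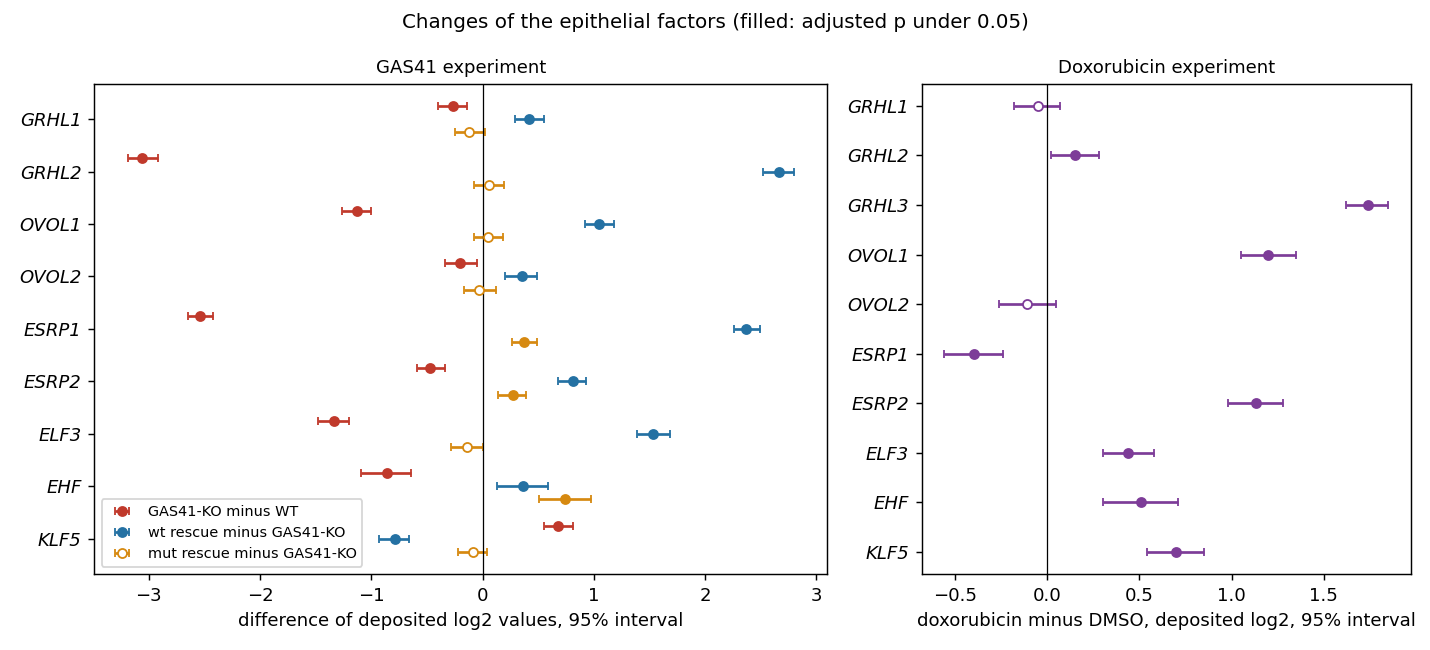
Differences of the deposited log2 values with 95% intervals, in the GAS41 experiment (left: GAS41-KO minus WT, wt rescue minus GAS41-KO and mut rescue minus GAS41-KO for 9 tested genes) and the doxorubicin experiment (right: 10 genes); filled points passed an adjusted p of 0.05. In the left panel wild-type rescue had the opposite sign to the knockout for each gene, from -3.06 and 2.66 for GRHL2 to -0.20 and 0.35 for OVOL2, while the mut rescue points are filled for ESRP1, ESRP2 and EHF only. The filled points of GRHL3 on the right and of GRHL2 on the left have a direction fixed by the filter on low values.

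The genes whose pattern over the 12 libraries came closest to a factor were ranked by the mean absolute difference of log2 values, each centred on its own WT mean. This is a description of libraries that the genes share. For GRHL2 they were STK39 (0.13 log2 units), AP1M2 (0.16), ALDH1A3 (0.29), SLC1A3 (0.33) and CDH1 (0.37). CDH1, which encodes E-cadherin, was the nearest gene to ESRP1 (0.09), followed by the tight junction gene CLDN7 (0.14) and RAB25 (0.19), a GTPase of epithelial membrane recycling. OVOL1 was matched to 0.06 by CHD3, EPHA1 and MAPK13, and ELF3 most closely by TBC1D30 (0.09), ADM (0.10) and SLC7A5 (0.12).

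In a list of 15 epithelial genes linked to GRHL2 in other systems, 12 fell and 2 rose in GAS41-KO, with a median change of -0.69, where 26.6% of all tested genes fell, 26.0% rose and their median was -0.01. CDH1 had 1420, 1400 and 1440 normalized reads in WT and fell 10.3-fold, to 131, 128 and 155 in GAS41-KO (-2.53 log2 units, adjusted p = 3.05e-14). CLDN7, EPCAM, which encodes an epithelial adhesion protein, and RAB25 fell 9.02-fold, 8.2-fold and 9.23-fold. These declines stood beside that of GRHL2, and whether one led to another was not tested. TJP3, of tight junctions, was 369 ± 28.7 in WT and 319 ± 33.3 in GAS41-KO and was not called (adjusted p = 0.0769, or 0.00945 with only those groups in the fit and 0.0483 without WT replicate 1). Wild-type rescue raised 11 of the 15 and lowered 3 relative to GAS41-KO, against 33.0% of all genes in each direction, and CDH1, CLDN7, EPCAM and the membrane protease gene ST14 rose 9.79-fold to 11.3-fold. In mut rescue 12 of 15 were called lower than in wt rescue, against 31.3% of all genes. There, CDH1 had 163 ± 13.6 normalized reads against 1350 ± 103. Relative to GAS41-KO, mut rescue raised 6 of the 15 (CLDN7, RAB25, EPCAM, ST14, TJP3 and LAD1) and lowered 3 (CLDN3, CLDN4 and ERBB3). Of all genes, 14.9% were called in that comparison and 5.92% were called higher. EPCAM had 1670 ± 162 normalized reads in mut rescue, against 915 ± 17 in GAS41-KO and 7500 ± 348 in WT. CDH1 was not called between mut rescue and GAS41-KO (adjusted p = 0.177).

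**Figure D3:**
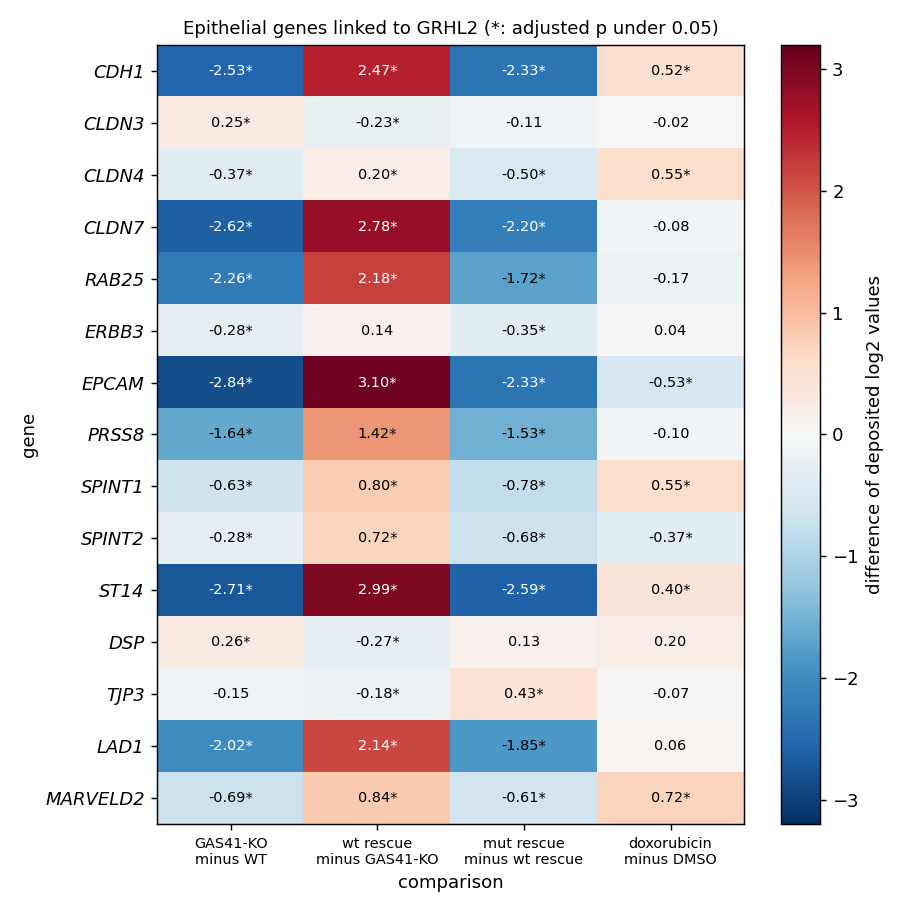
Differences of the deposited log2 values for 15 epithelial genes linked to GRHL2 (rows) in 4 comparisons (columns); colour and printed number give the difference and an asterisk an adjusted p under 0.05. EPCAM, ST14, CLDN7, CDH1, RAB25 and LAD1 fell by over 2 log2 units in GAS41-KO and rose by over 2 with wild-type rescue, while all 15 stayed within 0.72 log2 units after doxorubicin.

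Of the transition factors that oppose these epithelial regulators, 4 of the 6 listed in the GAS41 table were tested. ZEB1 alone rose in GAS41-KO and 2 fell, where 52.6% of all tested genes were called in either direction. ZEB1 had 77.3, 75.6 and 93.9 normalized reads in WT, 767, 740 and 729 in GAS41-KO, 57.8, 19.8 and 27.9 in wt rescue, and 575, 462 and 591 in mut rescue. It rose 9.06-fold in GAS41-KO (adjusted p = 6.88e-11) and fell 21.2-fold with wild-type rescue (-2.59, adjusted p = 4.82e-12), in each case against the direction of GRHL2. Every mut rescue library lay below every GAS41-KO library in ZEB1 and above every WT library. SNAI1 and TWIST1, both mesenchymal regulators, fell in GAS41-KO (-0.21, adjusted p = 0.0148, and -0.26, adjusted p = 0.000545). The SNAI1 call was lost without WT replicate 1 (0.066) or WT replicate 2 (0.0633). TWIST1 had 55 ± 6.64 normalized reads in WT, 32.5 ± 1.3 in GAS41-KO and 28.7 ± 1.59 in wt rescue, and the last was not called against GAS41-KO. SNAI3 had 31.9 ± 4.71 normalized reads in WT against 45.1 ± 3.88 in the knockout and was not called (adjusted p = 0.063, or 0.0178 with only those groups in the fit).

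**Figure D4:**
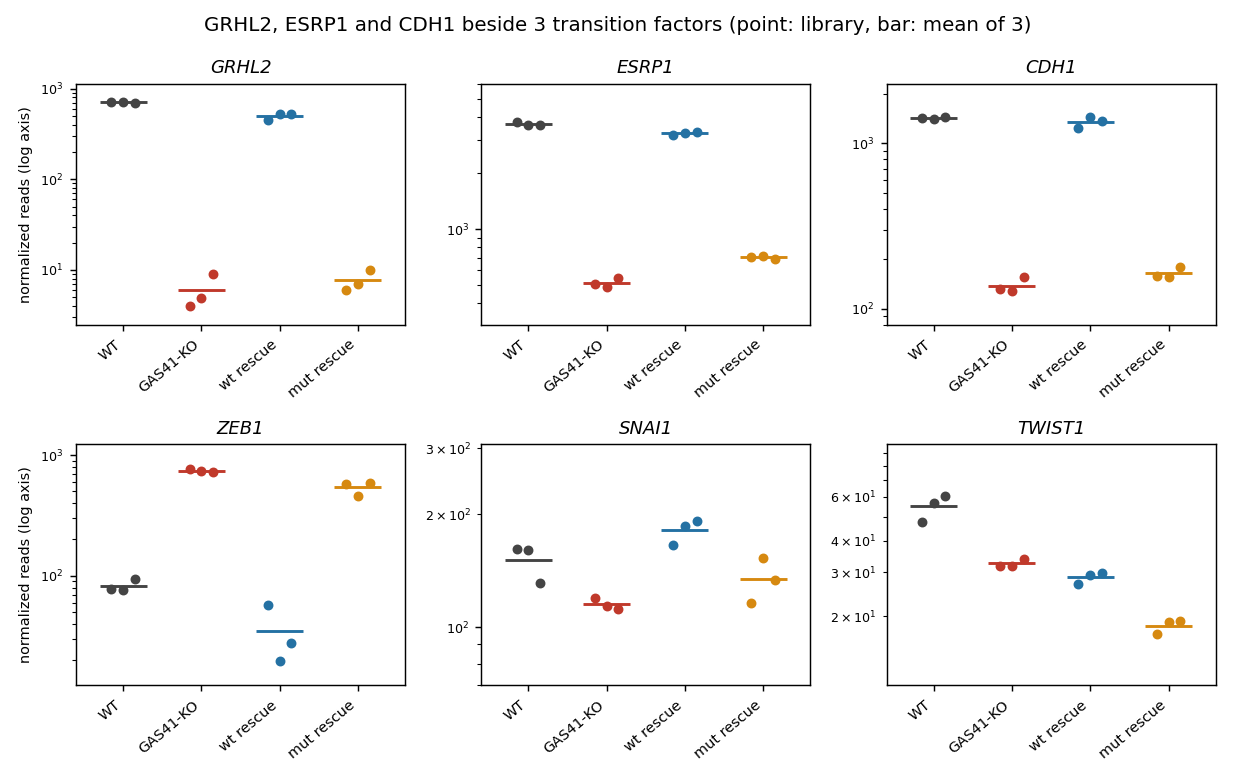
Normalized reads (log axis, a separate scale in each panel) of GRHL2, ESRP1 and CDH1 and of the transition factors ZEB1, SNAI1 and TWIST1 in the 4 groups of the GAS41 experiment; points are libraries and bars the mean of 3. ZEB1 was at least 462 in every GAS41-KO and mut rescue library and at most 93.9 in every WT and wt rescue library, opposite to the top row, while SNAI1 and TWIST1 did not rise in GAS41-KO.

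Among 9 other splicing factors with a known part in epithelial or mesenchymal splicing, 4 fell and 3 rose in GAS41-KO, where 52.6% of all genes were called. RBM47, an epithelial RNA-binding protein, fell 2.1-fold in GAS41-KO, from 423 ± 9.6 to 201 ± 5.83 normalized reads (-0.74, adjusted p = 8.05e-08). Its level was 347 ± 42.9 in wt rescue and 213 ± 5.09 in mut rescue. HNRNPM and SRSF1 fell by less (-0.48 and -0.36), and RBFOX2, a promoter of mesenchymal exons, rose (0.28, adjusted p = 0.000635). At the gene level, 3 of 6 genes with ESRP-regulated exons were called, a share close to the 52.6% of all genes: FGFR2 fell (-0.33, adjusted p = 0.000166), CD44 rose (0.23, adjusted p = 0.00727) and SCRIB fell (-0.24, adjusted p = 0.03), the last lost without any 1 of 4 libraries (adjusted p 0.065 to 0.114).

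Of 13 other tested transcription factors of epithelia, 5 rose and 4 fell in GAS41-KO, with a median change of -0.02, where 52.6% of all genes were called. One of the 5, FOXA2, passed the filter on low values only through the GAS41-KO libraries, so its direction was fixed by the filter. TFAP2C, an AP-2 factor, rose 2.73-fold (0.91, adjusted p = 1.54e-08) and the intestinal Wnt effector TCF7L2 rose 1.52-fold, whereas HNF4G, a nuclear receptor of the gut, fell 2.84-fold. CDX2, the intestinal homeobox factor, was not called (235 ± 22 normalized reads in WT, 215 ± 19.8 in the knockout, adjusted p = 0.426). In the wider family of grainyhead relatives, TFCP2L1 fell from 536 ± 26.1 to 333 ± 18.5 (-0.52, adjusted p = 2.87e-06) and rose again with wild-type rescue (0.53, adjusted p = 1.47e-06), while UBP1 and TFCP2 were not called in GAS41-KO.

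Doxorubicin gave another pattern: 7 of the 10 genes rose and ESRP1 fell, in a comparison in which 65.7% of 14195 tested genes were called in either direction, 32.3% higher and 33.4% lower. GRHL3 rose 30.6-fold, OVOL1 3.31-fold, ESRP2 2.44-fold and KLF5 1.79-fold, and ELF3 and EHF rose 1.4-fold and 1.45-fold. GRHL1 and OVOL2 were not called. The median change of the 10 was 0.47, against -0.01 over all tested genes. GRHL3, counted among the 7 and in that median, passed the filter on low values only through the doxorubicin libraries. Its direction was thus fixed by the filter. YEATS4 fell in the same cells, from 694, 612 and 698 to 173, 193 and 188 normalized reads (-1.25 log2 units, adjusted p = 3.58e-09).

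GRHL3 went from 9.15, 7.94 and 10.7 normalized reads in DMSO to 277, 287 and 287 in doxorubicin (1.74 log2 units). This is given with no test because of how GRHL3 passed the filter on low values. It was the family member nearest to the detection limit in untreated cells and the one with the largest change. GRHL2 went from 783, 754 and 784 to 887, 883 and 860, so all treated libraries exceeded all controls by a small margin (0.15, SE 0.06, adjusted p = 0.0479). That call was lost with no filter on low values (0.0561), with quantile normalization (0.0646), with the replicate number as a block (0.0863), and without DMSO replicate 2 (0.14) or any 1 of the doxorubicin libraries (0.0768 to 0.153). GRHL1 had 189, 186 and 184 normalized reads in DMSO and 172, 165 and 186 in doxorubicin, with overlap (-0.05, interval -0.18 to 0.07, adjusted p = 0.435, or -0.14 and 0.0418 after quantile normalization).

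OVOL1 had 244, 187 and 212 normalized reads in DMSO and 719, 713 and 695 in doxorubicin (1.20 log2 units, SE 0.07, adjusted p = 8.23e-09). The gap between the groups was far wider than the spread within either. OVOL2 had 34.6, 40.7 and 26.2 in DMSO and 14.8, 29.5 and 32.6 in doxorubicin, with overlap (-0.11, interval -0.26 to 0.05, adjusted p = 0.202, or -0.22 and 0.0173 after quantile normalization).

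The ESRP pair moved in opposite directions. ESRP1 fell from 3370, 3590 and 3890 normalized reads to 2810, 2650 and 2620 (-0.40 log2 units, SE 0.07, adjusted p = 0.000334). ESRP2 rose from 989, 903 and 870 to 2290, 2130 and 2320 (1.13, SE 0.07, adjusted p = 1.55e-08). Neither gene's groups overlapped, and in GAS41-KO both had fallen.

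ELF3 had 1730, 1680 and 1570 normalized reads in DMSO and 2290, 2370 and 2300 in doxorubicin (0.44, SE 0.07, adjusted p = 6.32e-05). EHF had 2190, 2490 and 2970 in DMSO and 3840, 3450 and 3780 in doxorubicin (0.51, SE 0.10, adjusted p = 0.00039). Both ETS factors were thus higher in each treated library than in any control, where GAS41-KO libraries had been lower than WT. KLF5 rose from 701, 640 and 751 to 1290, 1180 and 1270 (0.70, SE 0.07, adjusted p = 1.62e-06), in the same direction as in GAS41-KO. In all, 8 of the 10 genes had groups that did not overlap, against 69.1% of all tested genes. GRHL3 is among the 8, and its separation carries no weight because its direction was fixed by the filter.

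**Figure D5:**
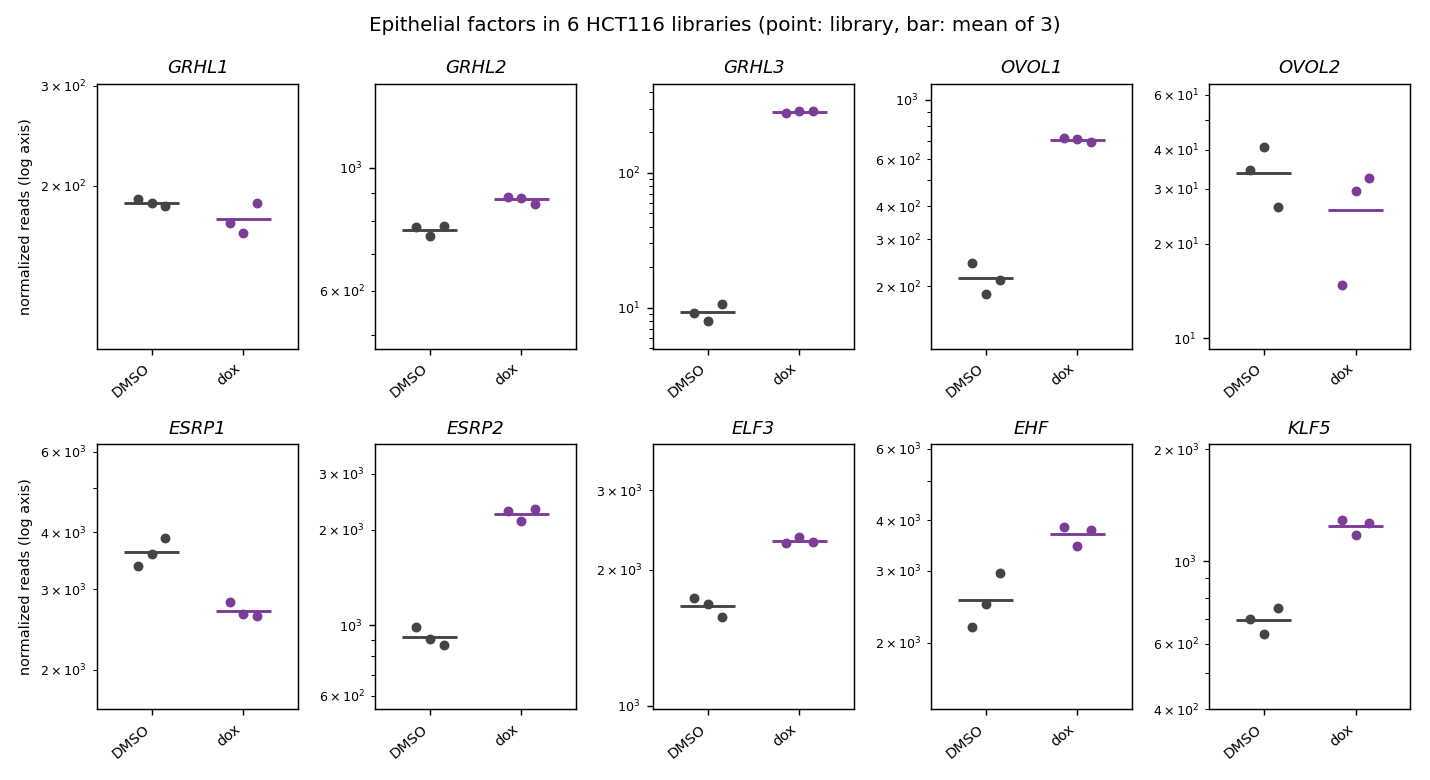
Normalized reads (log axis, a separate scale in each panel) of the 10 genes in the DMSO and doxorubicin (dox) groups; points are libraries and bars the mean of 3. GRHL3 went from under 11 to at least 277 normalized reads, OVOL1, ESRP2 and KLF5 were higher in every treated library, ESRP1 was lower in every treated library, and GRHL1 and OVOL2 overlapped.

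The other epithelial lists were mixed after doxorubicin. Of the 15 GRHL2-linked genes, 5 rose, 2 fell and 8 were not called, a smaller share called than the 65.7% of all genes. MARVELD2, of tricellular junctions, rose 2.22-fold (0.72, adjusted p = 1.83e-06), CDH1 rose 1.5-fold (0.52, adjusted p = 1.15e-05), SPINT1 and CLDN4 rose 1.51-fold and 1.49-fold, and CLDN7 was 3130 ± 115 in DMSO and 2940 ± 132 in doxorubicin (adjusted p = 0.295). Of 5 tested transition factors, SNAI2 went from 1.02, 0.992 and 1.94 to 119, 125 and 123 normalized reads, which is given with no test because it passed the filter on low values only through the doxorubicin libraries. SNAI3 rose 6.73-fold (1.37, adjusted p = 3.83e-09). ZEB1 fell from 26.4, 56.6 and 78.6 to 17.8, 13.2 and 16.8 (-0.43, adjusted p = 0.0015), and SNAI1 was not called (adjusted p = 0.702).

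Of the 9 other splicing factors, 7 fell and none rose with doxorubicin, where 33.4% of all genes fell and 32.3% rose. MBNL1, HNRNPM, SRSF1 and PTBP1 fell 2.01-fold, 1.71-fold, 1.69-fold and 1.39-fold, beside the fall of ESRP1 and against the rise of ESRP2. Of the 6 genes with ESRP-regulated exons, FGFR2 rose 2.17-fold and SCRIB 1.71-fold, and ENAH and ARHGEF11 fell 1.57-fold and 1.42-fold. Among 12 other tested transcription factors of epithelia, 7 rose and 3 fell, where 65.7% of all genes were called: TFAP2C rose 2.96-fold, while TCF7L2 fell 2.55-fold and HNF4G 5.06-fold. TFCP2L1 rose 1.74-fold, and its relatives TFCP2 and UBP1 fell 1.37-fold and 1.3-fold.

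Most of the epithelial markers rose with doxorubicin too. Their summed level was 72200 to 88000 normalized reads in DMSO and 146000 to 165000 in doxorubicin. Of the 7, 6 rose and EPCAM fell, where 32.3% of all tested genes rose and 33.4% fell. VIL1, counted among the 6, went from 0, 0 and 0.97 to 45.4, 39.7 and 54.3. It passed the filter on low values only through the doxorubicin libraries, so its direction was fixed by the filter. Fibroblast markers summed to 246 to 339 in DMSO and 329 to 407 in doxorubicin, with DCN and PDGFRA at 0 in every DMSO library. PDGFRB, of the same list, had 4.63 ± 1.15 normalized reads in DMSO and 26 ± 5.78 in doxorubicin. It is given with no test because it passed the filter on low values only through the doxorubicin libraries. Blood cell markers summed to 242 to 275 in DMSO and 175 to 207 in doxorubicin, most of it CD68. In the GAS41 table the fibroblast sum was 270 to 308 in WT, 240 to 311 in GAS41-KO, 161 to 179 in wt rescue and 262 to 335 in mut rescue, and the blood cell sum 173 to 195, 178 to 192, 301 to 369 and 214 to 279, with PTPRC at 0 in every WT library. Most of that blood cell sum was again CD68, at 180 ± 12.7 in WT, 172 ± 4.83 in GAS41-KO, 329 ± 35.7 in wt rescue and 239 ± 31.4 in mut rescue. Most of that fibroblast sum was COL1A1, and it hides COL3A1, which had 0.955, 0.944 and 0 normalized reads in WT, 9.98, 26.7 and 19 in GAS41-KO, 0 in every wt rescue library, and 12, 3.99 and 8.05 in mut rescue. COL3A1 is given with no test because it passed the filter on low values only through GAS41-KO and mut rescue libraries, so its direction was fixed by the filter. COL1A1 had 285 ± 19.6 normalized reads in WT, 242 ± 31.2 in GAS41-KO, 167 ± 11.1 in wt rescue and 285 ± 39.8 in mut rescue. The part of these markers in the changes of the 10 genes was not tested.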

How the data were processed

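RNA of 18 HCT116 libraries was analysed. The deposited tables hold log2 values, lowest value 6.29 (GAS41) and 6.72 (doxorubicin), on the scale of the variance-stabilizing transform of DESeq2, a tool that the submitters' processing notes list without its role beside HTSeq, TopHat2 2.1.0, Bowtie 1.0.1, Trimmomatic 0.36, CASAVA 1.4 and the builds hg19 and mm9. Inverting the transform gave whole reads for 100.0% of values (within 0.01). The count test named in the plan for count tables was not used, since the unit is log2. limma 3.58.1 (R 4.3.3, eBayes with trend) was fitted to the deposited values of genes with at least 10 reads in at least 3 libraries, 12 libraries in 1 fit and 6 in the other, with Benjamini-Hochberg adjustment over 14505 and 14195 genes. The fit was tested on simulated data. Figures were drawn with matplotlib 3.10.9.

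The members and lists were chosen with earlier results of these data known, and no list is independent support. Named were all 10 genes, YEATS4, per list and comparison up to 4 called genes with the smallest p and up to 2 uncalled genes with the highest level, and the nearest genes by pattern (5 for GRHL2, 3 for other members whose group means span 1 log2 unit or more). Some genes that this rule names are not reported here; OVOL1-AS1, LAD1, DCN, PDGFRA and PTPRC fall outside that rule and were named after their values were seen. Alternatives were no filter, a replicate block, log2(normalized reads + 1), voom weights, quantile normalization, only the groups compared, leaving out each library and, chosen after seeing the data, wt rescue replicate 1 alone.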

Additional observations from a re-analysis of the deposited data

How the results depend on the processing

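The number of the 10 genes called stayed within 1.5 times its reported value in each of the 7 comparisons and under every alternative run, except for wt rescue against WT: 5 in the report, 3 without WT replicate 3 and 2 with replicate 1 as the only wt rescue library, whose spread is then assumed to be that of the other groups. Leaving out 1 library at a time gave 8 to 9 called in GAS41-KO against WT, 9 to 9 in wt rescue against GAS41-KO, 3 to 3 in mut rescue against GAS41-KO, 9 to 9 in mut rescue against wt rescue, 3 to 6 in wt rescue against WT, 7 to 8 in mut rescue against WT and 7 to 8 with doxorubicin. One difference changed sign: OVOL2 in mut rescue against GAS41-KO was -0.03 in the report and ranged from -0.10 to 0.02 when 1 library was left out (0.02 without mut rescue replicate 1), with none of these called. The cause was not tested. In the GAS41 experiment 11 of 18 same-number correlations were over 0.1, from -0.39 to 0.48, and 8 of 12 libraries correlated best with their own number. A part of the spread there may thus be shared by replicate number, which the main fit does not model. With doxorubicin 1 of 3 correlations was over 0.1, and 2 of 6 libraries correlated best with their own number. Among the counts of the 10 genes the replicate block moved only that for doxorubicin, 7 in place of 8. It moved the epithelial markers called in wt rescue against GAS41-KO from 3 to 5, and the GRHL2-linked genes called in wt rescue against WT from 5 to 8. Depth limits GRHL2 and GRHL3 where they have about 10 reads or fewer, and OVOL2 throughout.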
